A study of Mus musculus with 6 samples.

Results

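The insulin-like growth factor (IGF) system was followed in floated adipocytes of inguinal subcutaneous white adipose tissue (scWAT) through 10 genes, chosen by symbol from the 37384 gene symbols of a table of raw counts. They were the 2 ligands *Igf1* and *Igf2*, the 2 receptors *Igf1r* and *Igf2r*, and the 6 binding proteins *Igfbp2*, *Igfbp3*, *Igfbp4*, *Igfbp5*, *Igfbp6* and *Igfbp7*. The mice were males at postnatal day 7 (P7), and the libraries held 30548473 to 32107917 counts each. All of them carried floxed alleles of *Lats1* and *Lats2*, the kinases of the Hippo pathway that restrain the coactivators YAP and TAZ. L1L2-FF mice (*Lats1f/fLats2f/f*) had no Cre recombinase, and L1L2-AKO mice (*Lats1f/fLats2f/fAdipoqCre*) expressed Cre from the *Adipoq* promoter, which is active in adipocytes. Each genotype had 3 libraries, and each library came from the pooled adipocytes of 4 mice. Other cells that floated with the adipocytes, which lack an active *Adipoq* promoter, would keep both *Lats* genes and also give RNA to a library.

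IGF-1 and IGF-2 are secreted growth factors that signal for growth, survival and differentiation through the tyrosine kinase encoded by *Igf1r*, while the receptor encoded by *Igf2r* carries IGF-2 to lysosomes. In blood and tissue most IGF is held by binding proteins, which limit, store or deliver it, and which proteases cut to set it free. Fat cells and their precursors both make and answer IGF-1, and IGF-1 promotes adipocyte differentiation.

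Genes of the system moved in both directions. In the libraries labelled L1L2-AKO, *Igfbp2*, *Igfbp3* and *Igfbp4* and the receptor *Igf1r* were higher, and *Igf1*, *Igfbp6* and *Igfbp7* were lower. *Igf2*, *Igf2r* and *Igfbp5* did not pass the test. Of the 10 genes 4 were thus called higher and 3 lower by edgeR's quasi-likelihood test at a Benjamini-Hochberg adjusted p-value of 0.05, where 16.5% of the 15674 genes tested were called, 9.28% higher and 7.18% lower. The 3 libraries of one genotype lay wholly above or below those of the other for the same 7 genes, 4 above and 3 below, against 36.4% of all genes tested, 18.0% above and 18.4% below. The median log2 fold change of the 10 genes was -0.35, against -0.02 over all genes tested. All 10 genes entered the test, but *Igfbp2* did so only through its counts in the libraries labelled L1L2-AKO, so that these counts describe the 10 genes and support nothing.

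**Figure D1:**
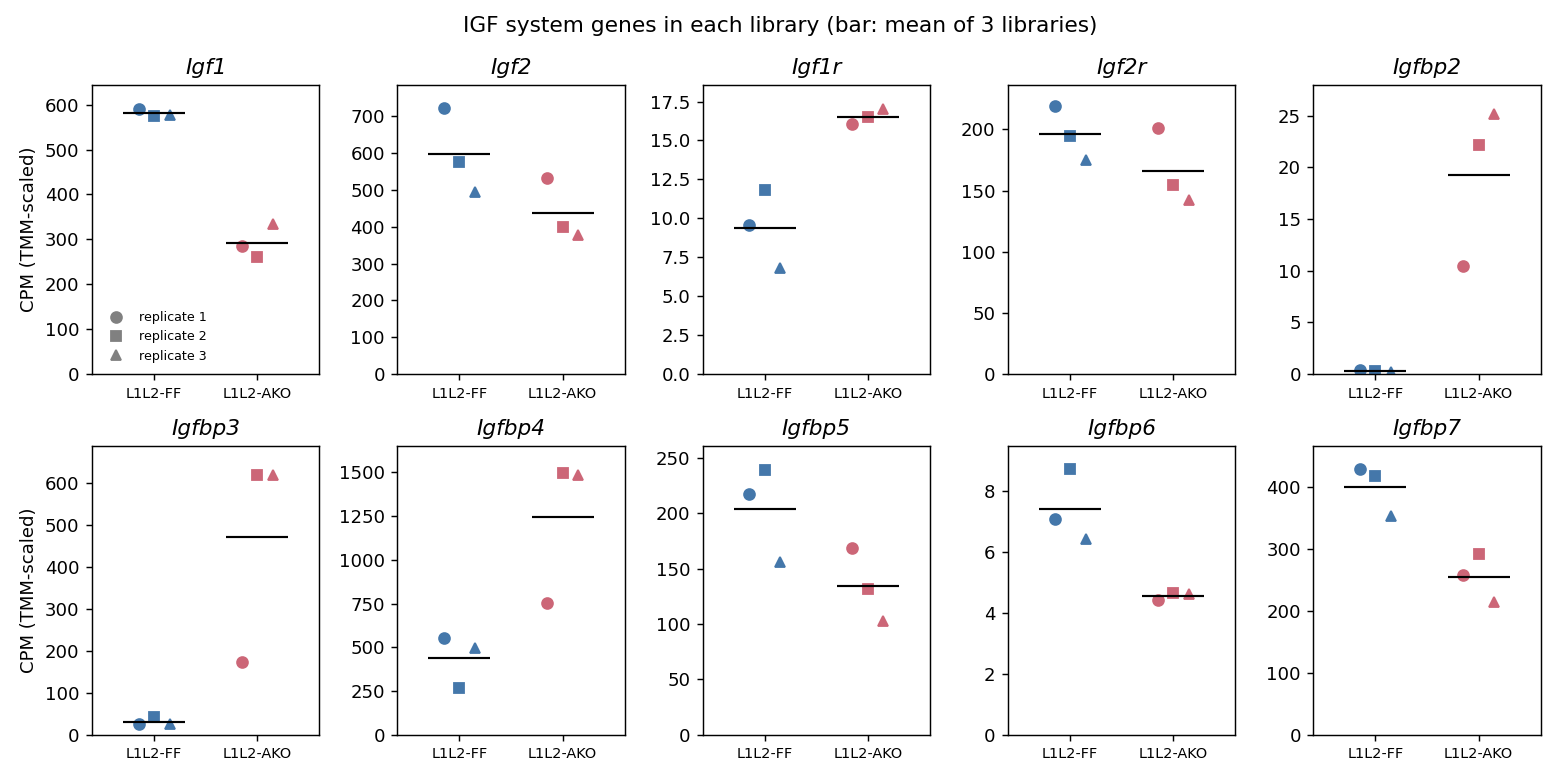
Normalised expression of the 10 IGF system genes in each library, in CPM, the counts of a gene over the TMM-scaled library total, on a linear axis that starts at 0, with L1L2-FF in blue, L1L2-AKO in red, a marker shape for each replicate number and a bar at the mean of 3 libraries. *Igfbp2*, *Igfbp3*, *Igfbp4* and *Igf1r* lie higher in all 3 libraries labelled L1L2-AKO, and *Igf1*, *Igfbp6* and *Igfbp7* lie lower in all 3.

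The direction of one targeted gene went against the labels. *Lats1* fell from 82.9 ± 9.90 to 40.2 ± 1.16 CPM (SD, n = 3), a log2 fold change of -1.04 with an SE of 0.12 and an edgeR quasi-likelihood adjusted p of 0.00131. *Lats2* rose from 76.4 ± 8.68 to 119 ± 20.6 CPM (SD, n = 3), a log2 fold change of 0.64 with an SE of 0.16 and an edgeR quasi-likelihood adjusted p of 0.0278. The *Lats2* call was lost without L1L2-FF replicate 1 (adjusted p = 0.100) or 3 (0.0651) and without L1L2-AKO replicate 2 (0.104) or 3 (0.0946). Counts per gene include exons outside the floxed ones, so the *Lats2* count by itself does not check the deletion, and the directions given here are those of the labels.

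The summed markers of adipocytes, macrophages, Schwann cells and skeletal muscle did not overlap between the genotypes, and the other sums did. Over all genes tested 9.28% were called higher and 7.18% lower, so the 1 endothelial call of 10 was close to that share. Over 10 mature adipocyte markers the summed level was 20037 to 22002 CPM in the libraries of L1L2-FF and 11634 to 14046 CPM in those labelled L1L2-AKO, with 4 of the 10 lower and 0 higher. Over 12 macrophage markers the sum was 269 to 520.3 CPM and 983 to 1102 CPM, with 11 of the 12 higher. Over 8 Schwann cell markers it was 501 to 1304 CPM and 164 to 413 CPM, with 4 lower, over 10 endothelial markers 2039 to 2735 CPM and 1186 to 2564 CPM, with 1 lower, over 10 mural cell markers 1636 to 2050 CPM and 1874 to 2076 CPM, with 3 higher and 2 lower, and over 10 progenitor and fibroblast markers 548 to 797 CPM and 455 to 565 CPM, with 1 higher and 2 lower. Within the mural list *Tagln*, *Acta2* and *Notch3* were the higher genes and *Rgs5* and *Cspg4* the lower ones, so that its sum was nearly level while its members were not. Markers of skeletal muscle, lymphocytes and red cells gave 0 calls in either direction with edgeR's adjusted p. The 8 skeletal muscle markers, of which 5 were tested, were low. Their sum was 11.8 to 19.3 CPM in L1L2-FF and 2.95 to 9.67 CPM in the libraries labelled L1L2-AKO. The adipocyte label was borne by *Fabp4* at 8164 CPM and *Cfd* at 3718 CPM in L1L2-FF, which were 6609 and 211 CPM in those labelled L1L2-AKO, and no marker of any list was at 0 in all libraries of a genotype. In these bulk samples fewer cells of a type and less RNA per cell cannot be told apart.

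The DNA just upstream of the genes that moved most is shown here because 3 binding protein genes rose together, and because *Igfbp5* lies next to *Igfbp2* and did not. The sequences are from RefSeq on GRCm38.p6, 250 bases that end just before the annotated transcription start, read 5′ to 3′ on the gene's strand. The search covered these bases and the 50 after the start, and all 10 genes matched at least 1 of 14 RefSeq entries. Capitals mark GGAATG, or CATTCC on the other strand, the core that TEAD factors bind, and TATAAA on the gene's strand. *Igfbp2* is represented by the more upstream of its 2 starts.
*Igfbp2* at chr1:72824230-72824479 (+): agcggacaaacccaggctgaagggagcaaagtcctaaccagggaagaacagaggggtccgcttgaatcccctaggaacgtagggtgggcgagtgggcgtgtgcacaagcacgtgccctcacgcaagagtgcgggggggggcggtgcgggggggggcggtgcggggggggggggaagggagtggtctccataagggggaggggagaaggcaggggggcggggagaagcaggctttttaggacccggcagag
*Igfbp3* at chr11:7213924-7214173 (-): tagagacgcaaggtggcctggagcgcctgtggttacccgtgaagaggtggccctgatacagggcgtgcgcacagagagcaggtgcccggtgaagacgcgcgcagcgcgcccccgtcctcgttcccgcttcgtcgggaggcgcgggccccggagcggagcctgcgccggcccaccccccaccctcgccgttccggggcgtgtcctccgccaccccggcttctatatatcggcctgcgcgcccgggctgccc
*Igfbp4* at chr11:99040994-99041243 (+): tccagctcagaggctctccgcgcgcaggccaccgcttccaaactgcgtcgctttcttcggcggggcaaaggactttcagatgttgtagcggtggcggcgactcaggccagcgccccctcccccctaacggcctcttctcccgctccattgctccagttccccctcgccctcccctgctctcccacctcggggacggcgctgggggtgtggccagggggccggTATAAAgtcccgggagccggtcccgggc
*Igf1* at chr10:87860861-87861110 (+): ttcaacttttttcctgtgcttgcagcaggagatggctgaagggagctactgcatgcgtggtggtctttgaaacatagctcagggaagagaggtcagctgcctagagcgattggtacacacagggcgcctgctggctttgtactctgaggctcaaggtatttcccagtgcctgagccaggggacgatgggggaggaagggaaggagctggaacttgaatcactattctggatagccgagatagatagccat
*Igfbp5* at chr1:72874866-72875115 (-): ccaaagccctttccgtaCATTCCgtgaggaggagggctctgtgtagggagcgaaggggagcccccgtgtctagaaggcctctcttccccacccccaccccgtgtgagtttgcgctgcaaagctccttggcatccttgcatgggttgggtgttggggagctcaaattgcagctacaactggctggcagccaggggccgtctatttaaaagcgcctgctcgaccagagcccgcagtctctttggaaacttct
TEAD factors are the DNA-binding partners of YAP and TAZ. No match to the TEAD core was present in the windows of *Igfbp2*, *Igfbp3*, *Igfbp4* or *Igf1*, nor in those of *Igf1r*, *Igf2r*, *Igfbp6* and *Igfbp7*. It was present at position -233 from the start of *Igfbp5* and in 3 of the 4 windows of *Igf2*, while 14.7% of the 32851 mouse windows of 300 bases hold it. TATAAA was found only in *Igfbp4*, at position -28, and in 8.32% of all windows. A match is a description of letters, and its absence from so short a window says nothing of the factor.

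Of the ligands, *Igf1* was lower and *Igf2* did not pass the test. *Igf1* (chr10:87858265-87937042 on GRCm38 by GENCODE M21, plus strand) is the main growth factor of the system after birth. Its normalised level was 591, 574 and 578 CPM in L1L2-FF replicates 1 to 3 and 284, 261 and 334 CPM in L1L2-AKO replicates 1 to 3. The L1L2-FF libraries were nearly level, the labelled L1L2-AKO libraries spread more, and the genotypes were far apart without overlap. The mean fell from 581 ± 9.0 to 293 ± 37.2 CPM (SD, n = 3), to 50.4% of L1L2-FF. This was a log2 fold change of -0.99 with an SE of 0.14, a 95% interval from -1.31 to -0.67 and an edgeR quasi-likelihood adjusted p of 0.00306. The call held under all 16 alternatives that were fitted, with adjusted p-values of at most 0.0211.

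*Igf2*, the fetal growth factor that is expressed from the paternal allele, spans chr7:142650766-142666816 (minus strand). It was at 723, 575 and 493 CPM in L1L2-FF and at 532, 399.6 and 378 CPM in those labelled L1L2-AKO. Replicate 1 was the highest library of both genotypes, and L1L2-AKO replicate 1 lay above L1L2-FF replicate 3, so the groups overlapped. The mean was 597 ± 117 CPM in L1L2-FF and 437 ± 83.4 CPM in L1L2-AKO (SD, n = 3). With a log2 fold change of -0.45, a 95% interval from -0.91 to 0.00 and an edgeR quasi-likelihood adjusted p of 0.166, *Igf2* did not pass the test.

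The transcript whose pattern over the 6 libraries was most like that of *Igf2* was *H19*, the maternally expressed noncoding RNA 72.6 kb away in the same imprinted domain. Its distance from *Igf2* was 0.06 on the log2 scale, taken as the root mean square difference of centred log2 CPM, among 10059 candidate genes. *Arsb*, a lysosomal sulfatase, at 0.09 and *Fbxo33*, an F-box gene, at 0.10 came next. *H19* was at 605 ± 97.0 CPM in L1L2-FF and 423 ± 59.6 CPM in L1L2-AKO (SD, n = 3), a log2 fold change of -0.52 with an edgeR quasi-likelihood adjusted p of 0.0788. For *Igf1* the nearest patterns were those of *Adhfe1*, an iron-containing alcohol dehydrogenase of mitochondria, at a distance of 0.04, *Rffl*, a ubiquitin ligase, at 0.08 and *Tob1*, an antiproliferative gene, at 0.08. Their fitted log2 fold changes were -1.03, -0.95 and -0.96, beside -0.99 for *Igf1*. Values near that of *Igf1* follow from choosing genes by their likeness to it over the same libraries. The 6 libraries and their scaling are shared by all of these genes.

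The antisense gene *Igf1os*, which overlaps *Igf1* but shares 0 exon bases with it, was at 2.23, 1.24 and 1.64 CPM in L1L2-FF and at 0.422, 0.349 and 0.0698 CPM in those labelled L1L2-AKO. It was lower by 2.56 on the log2 scale, and the edgeR quasi-likelihood adjusted p was 0.0164 (0.0723 without L1L2-FF replicate 1 and 0.0596 without L1L2-AKO replicate 2). Its raw counts were 70, 40 and 51 against 14, 11 and 2, and it reached the minimum of the filter in all 3 libraries only in L1L2-FF, the group where it was high, so its call supports nothing. Of the exon bases of *Igf2*, 62.8% are shared with *Gm49394*, a gene of the same strand that has no entry in the table of counts under that symbol. It also shares 98 exon bases with the antisense gene *Igf2os*, which was at 1.49 ± 0.267 and 1.27 ± 0.286 CPM (SD, n = 3). The counting program and its strand setting are not given in the sources used here, so reads from overlapping genes, or from a gene and its antisense partner, cannot be told apart.

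Of the receptors, *Igf1r* was higher and *Igf2r* did not pass the test. *Igf1r* (chr7:67952827-68233668, plus strand) encodes the kinase that passes on both ligands. It was at 9.54, 11.8 and 6.80 CPM in L1L2-FF and at 16.1, 16.5 and 17.0 CPM in those labelled L1L2-AKO. All 3 of the latter were close together and above every L1L2-FF library. The mean rose from 9.40 ± 2.52 to 16.5 ± 0.463 CPM (SD, n = 3), by 0.81 on the log2 scale with an SE of 0.21, a 95% interval from 0.34 to 1.29 and an edgeR quasi-likelihood adjusted p of 0.0315. The call was lost with library size alone as the scaling (adjusted p = 0.0537), without L1L2-FF replicate 1 (0.101) and without L1L2-AKO replicate 1 (0.0644), 2 (0.0975) or 3 (0.0953), with log2 fold changes from 0.78 to 0.83.

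*Igf2r* (chr17:12682406-12769664, minus strand) encodes the receptor that clears IGF-2 and sorts lysosomal enzymes. It was at 219, 195 and 175 CPM in L1L2-FF and at 201, 155 and 142 CPM in those labelled L1L2-AKO, with overlap. Its log2 fold change was -0.24, with a 95% interval from -0.61 to 0.13 and an edgeR quasi-likelihood adjusted p of 0.367. The antisense transcript *Airn*, which overlaps the *Igf2r* gene but shares 0 exon bases with it, was at 8.22 ± 3.13 CPM and 5.93 ± 0.933 CPM (SD, n = 3). It did not pass the test either (edgeR adjusted p = 0.346).

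Among the binding proteins *Igfbp2* showed the highest rise of the 10 genes. *Igfbp2* (chr1:72824503-72852474, plus strand) encodes a secreted binding protein with a preference for IGF-2 and a site for integrins. Its reads were few in L1L2-FF, with raw counts of 13, 9 and 7, and were 345, 700 and 720 in those labelled L1L2-AKO. As CPM these were 0.415, 0.278 and 0.226 against 10.4, 22.2 and 25.1. L1L2-AKO replicate 1 was the lowest of its group but still far above every L1L2-FF library. The mean was 0.306 ± 0.0977 CPM in L1L2-FF and 19.2 ± 7.80 CPM in L1L2-AKO (SD, n = 3), a ratio of 62.8. The log2 fold change of 5.95, with an SE of 0.44 and a 95% interval from 4.95 to 6.96, was the 27th highest of the 15674 genes tested, and the edgeR quasi-likelihood adjusted p was 3.16e-04. *Igfbp2* passed the filter only through the group where it was high, so its rank and call describe the counts and support nothing.

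*Igfbp3* (chr11:7206086-7213923, minus strand) encodes the binding protein that carries most circulating IGF in a ternary complex with the acid-labile subunit. It was at 25.0, 43.4 and 26.8 CPM in L1L2-FF and at 173, 619.7 and 619 CPM in those labelled L1L2-AKO. As with *Igfbp2*, L1L2-AKO replicate 1 was the lowest of its group, replicates 2 and 3 were level, and the genotypes did not overlap. The mean rose from 31.7 ± 10.1 to 470.5 ± 258 CPM (SD, n = 3), 14.8 times the level of L1L2-FF. On the log2 scale the rise was 3.89 with an SE of 0.50, a 95% interval from 2.74 to 5.05 and an edgeR quasi-likelihood adjusted p of 0.00220, and its rank was 71 among all genes tested. The calls of *Igfbp2* and *Igfbp3* held under every alternative that was fitted, with adjusted p-values of at most 0.00335 and 0.0168. For *Igfbp2* this adds no support, because of how it passed the filter.

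*Igfbp4* (chr11:99041244-99054392, plus strand) encodes a binding protein that mostly restrains IGF until the protease PAPP-A cuts it. It was at 554, 268 and 497 CPM in L1L2-FF and at 751, 1497 and 1486 CPM in those labelled L1L2-AKO. L1L2-FF replicate 2 and L1L2-AKO replicate 1 were the low libraries of their groups, and the groups did not overlap. The mean rose from 439.8 ± 151 to 1245 ± 428 CPM (SD, n = 3), by 1.50 on the log2 scale with an SE of 0.35, a 95% interval from 0.71 to 2.30 and an edgeR quasi-likelihood adjusted p of 0.0229. Of its transcript windows of 50 bases 1.72% also occur in other genes. The call was lost without L1L2-FF replicate 1 (adjusted p = 0.0518) and without L1L2-AKO replicate 2 (0.0830) or 3 (0.0794).

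**Figure D2:**
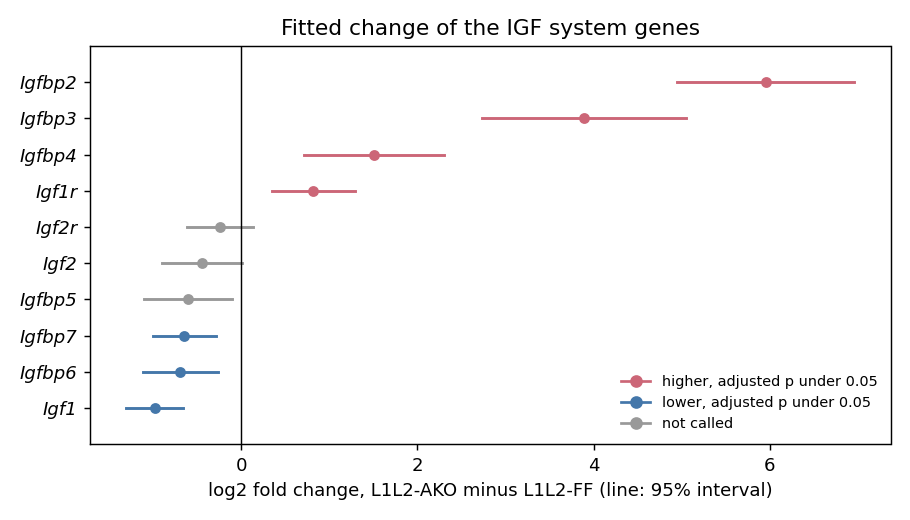
Log2 fold change of the 10 IGF system genes (x axis, labelled L1L2-AKO minus L1L2-FF), with points at the fitted value and lines over its 95% interval, red for genes higher and blue for genes lower at an edgeR adjusted p under 0.05, and grey for the others. The intervals of *Igfbp2* (4.95 to 6.96) and *Igfbp3* (2.74 to 5.05) lie above those of the other 8 genes.

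The other 3 binding proteins had negative log2 fold changes, and 2 of them passed the test. *Igfbp5* (chr1:72857932-72874884, minus strand) has its gene end 5.457 kb from that of *Igfbp2*, and encodes a binding protein that attaches to the extracellular matrix. It was at 217, 239.5 and 156 CPM in L1L2-FF and at 168, 132 and 103 CPM in those labelled L1L2-AKO. L1L2-AKO replicate 1 lay above L1L2-FF replicate 3, so the groups overlapped. The log2 fold change was -0.61 with a 95% interval from -1.11 to -0.10, and the gene did not pass the edgeR quasi-likelihood test with an adjusted p of 0.0999. Per exon length, the ratio of *Igfbp2* to its neighbour *Igfbp5* was 0.00620, 0.00378 and 0.00470 in L1L2-FF and 0.201, 0.549 and 0.796 in those labelled L1L2-AKO, and the genotypes did not overlap.

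*Igfbp6* (chr15:102144362-102149511, plus strand) encodes the binding protein with the strongest preference for IGF-2. It was at 7.09, 8.75 and 6.45 CPM in L1L2-FF and at 4.43, 4.66 and 4.64 CPM in those labelled L1L2-AKO, where the 3 libraries were almost equal and all below L1L2-FF. The difference was -0.70 on the log2 scale with an SE of 0.18, a 95% interval from -1.12 to -0.27 and an edgeR quasi-likelihood adjusted p of 0.0380. This call was lost under 7 of the 16 alternatives, more than that of any other of the 10 genes. Among these were library size alone (adjusted p = 0.0548) and the fits without L1L2-FF replicate 1 (0.0975) or 2 (0.0771) and without L1L2-AKO replicate 1 (0.0961), 2 (0.117) or 3 (0.108).

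*Igfbp7* (chr5:77349240-77408041, minus strand) encodes a matrix-associated protein of vessels and stroma that binds IGF only weakly. It was at 429, 417 and 352 CPM in L1L2-FF and at 257, 291 and 214 CPM in those labelled L1L2-AKO, without overlap. The mean fell from 399 ± 41.3 to 254 ± 38.6 CPM (SD, n = 3), a log2 fold change of -0.65 with an SE of 0.16, a 95% interval from -1.01 to -0.29 and an edgeR quasi-likelihood adjusted p of 0.0265. The call was lost without L1L2-FF replicate 1 (adjusted p = 0.109) and without L1L2-AKO replicate 1 (0.0644) or 3 (0.0930). Its exons share 85 bases with *Polr2b* on the opposite strand, and reads from those bases cannot be assigned to one gene.

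Divided by exon length, the levels of the 10 genes can be set beside each other, here as CPM per kb of exon. In L1L2-FF *Igfbp7* led with 330.1 ± 34.1, followed by *Igf2* with 104 ± 20.4 and *Igfbp4* with 99.6 ± 34.3 (SD, n = 3), whose libraries overlapped. *Igf1* stood at 58.6, *Igfbp5* at 34.0, *Igf2r* at 21.1, *Igfbp3* at 10.1, *Igfbp6* at 6.68, *Igf1r* at 0.560 and *Igfbp2* at 0.166 CPM per kb, and apart from *Igf2* and *Igfbp4* no neighbours in this order overlapped. The receptor that signals was thus the second lowest of the 10 transcripts, and *Igfbp2* the lowest.

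In the libraries labelled L1L2-AKO the order by level per kb was different. *Igfbp4* came first with 282 ± 96.8, then *Igfbp7* with 210.3 ± 31.9, *Igfbp3* with 150.3 ± 82.4 and *Igf2* with 76.3 ± 14.6 CPM per kb (SD, n = 3), and each of these overlapped with the next. *Igf1* at 29.6, *Igfbp5* at 22.3 and *Igf2r* at 17.8 CPM per kb also overlapped in turn. *Igfbp2* at 10.4, *Igfbp6* at 4.12 and *Igf1r* at 0.984 CPM per kb were separate and came last. *Igfbp3* had moved from place 7 to place 3, and *Igfbp2* from place 10 to place 8.

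Ratios within a library do not depend on the scaling between libraries, and they are given as a description without a test. The summed level of the 6 binding proteins was 531, 467 and 444 CPM per kb in L1L2-FF and 476, 816 and 746 CPM per kb in those labelled L1L2-AKO, with overlap because of L1L2-AKO replicate 1. The summed ligands were at 186, 158 and 144 CPM per kb against 122, 96.2 and 99.8 CPM per kb. The ratio of ligands to binding proteins was 0.350, 0.339 and 0.325 in L1L2-FF and 0.256, 0.118 and 0.134 in those labelled L1L2-AKO. It was tightly grouped in L1L2-FF, lower in every library of the other genotype, and lowest in replicates 2 and 3, the libraries with the most *Igfbp3* and *Igfbp4*. The ratio of *Igf1* to *Igf2*, per exon length, was 0.472, 0.576 and 0.677 in L1L2-FF and 0.308, 0.377 and 0.510 in those labelled L1L2-AKO, which overlapped.

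The make-up of the binding protein transcripts was separate between the genotypes where their sum was not. *Igfbp3* and *Igfbp4* together held 25.1%, 16.0% and 27.3% of the summed level per kb in L1L2-FF and 47.3%, 65.8% and 71.6% in those labelled L1L2-AKO. *Igfbp5* and *Igfbp7* together held 73.6%, 82.3% and 71.4% and then 50.6%, 32.2% and 26.0%. The first share was higher and the second lower in every library labelled L1L2-AKO. The pairs join genes by the direction of their fitted change, and both shares together hold nearly all of the sum. One share therefore falls when the other rises, and their separation describes the values and supports nothing. The mean share was 68.7% and 32.7% for *Igfbp7*, 2.13% and 20.8% for *Igfbp3* and 20.7% and 40.8% for *Igfbp4*, while *Igfbp2* at its highest held 1.82%.

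**Figure D3:**
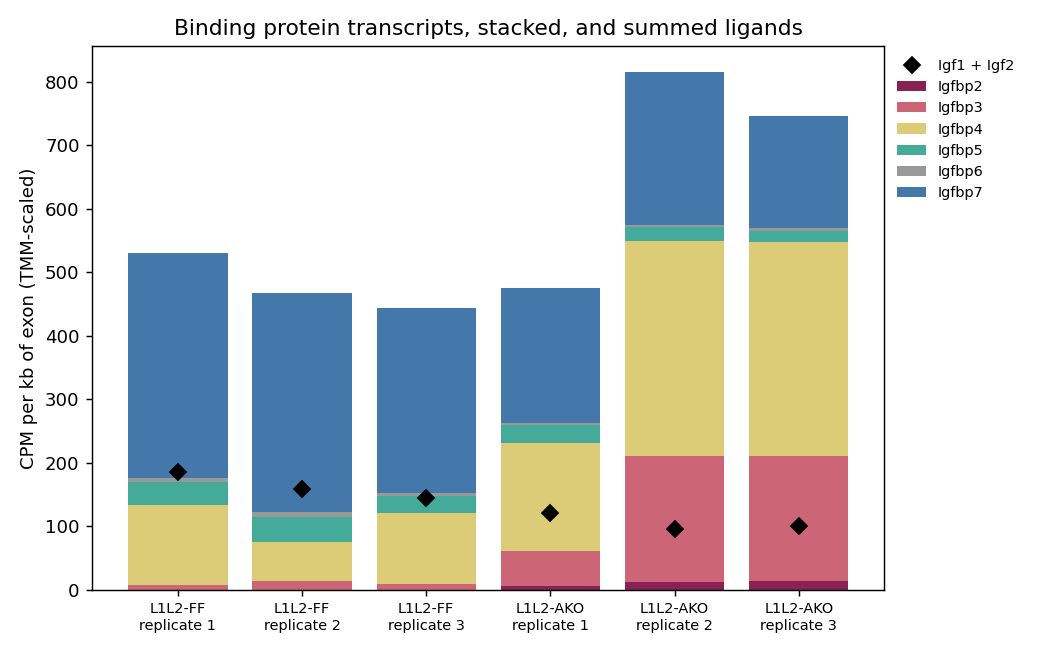
Stacked bars of the 6 binding protein transcripts in each library as CPM per kb of exon, from 0, with a black diamond at the sum of *Igf1* and *Igf2* in the same unit. The pale and red segments (*Igfbp4*, *Igfbp3*) fill 47.3% to 71.6% of the bar in the libraries labelled L1L2-AKO and 16.0% to 27.3% in L1L2-FF, and the diamonds are lower in the former.

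Of 19 other IGF system genes 16 were tested, with 5 higher, 1 lower and a median log2 fold change of 0.36 over those tested, where 9.28% of all genes tested were higher and 7.18% lower. *Pappa*, which encodes the PAPP-A protease that cuts *Igfbp4* protein, was at 0.670, 2.72 and 0.355 CPM in L1L2-FF and at 1.84, 1.78 and 1.71 CPM in those labelled L1L2-AKO. L1L2-FF replicate 2 lay above every other library, and the gene did not pass the edgeR test (log2 fold change 0.50, adjusted p = 0.657) but did so without that library (adjusted p = 0.0202). Its relative *Pappa2*, another protease of binding proteins, was at 0.192, 0.247 and 0.129 CPM in L1L2-FF and at 1.24, 1.3 and 1.54 CPM in those labelled L1L2-AKO, all low levels without overlap. Its log2 fold change was 2.81 (edgeR quasi-likelihood adjusted p = 0.00275), and it too passed the filter only through the group where it was high. *Stc2*, which encodes an inhibitor of the pappalysins, rose from 5.22 ± 0.856 to 15.3 ± 2.07 CPM (SD, n = 3), by 1.55 on the log2 scale (edgeR quasi-likelihood adjusted p = 0.00172). The related gene *Stc1* rose from 7.50 ± 1.66 to 13.0 ± 1.98 CPM (SD, n = 3), by 0.80 (edgeR quasi-likelihood adjusted p = 0.0370), but this call was lost when any of the 6 libraries was left out, with adjusted p-values from 0.0510 to 0.107. *Htra1*, a serine protease of the matrix that can cut *Igfbp5* protein, was also called higher, and was named here after its values were seen. Its log2 fold change was 0.55 (edgeR quasi-likelihood adjusted p = 0.0161, and 0.0547 and 0.0615 without L1L2-FF replicate 1 or L1L2-AKO replicate 3).

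*Igf2bp1*, an RNA-binding protein of early development that binds *Igf2* mRNA, rose from 1.23 ± 0.408 to 5.45 ± 1.41 CPM (SD, n = 3), by 2.15 on the log2 scale (edgeR quasi-likelihood adjusted p = 0.00382). *Igfals*, the acid-labile subunit that joins *Igfbp3* protein and IGF in the circulating complex, was at 61.5, 13.2 and 70.6 CPM in L1L2-FF and at 14.4, 4.69 and 7.61 CPM in those labelled L1L2-AKO. L1L2-FF replicate 2 was the low library of its group and lay below L1L2-AKO replicate 1. The log2 fold change was -2.44 with an SE of 0.62 and an edgeR quasi-likelihood adjusted p of 0.0336, and the call was lost with limma-voom (0.0854) and without L1L2-FF replicate 1 (0.106) or 3 (0.0859) or L1L2-AKO replicate 2 (0.115) or 3 (0.123). The insulin receptor gene *Insr* was at 163 ± 25.2 and 119.7 ± 26.3 CPM (SD, n = 3) and did not pass the edgeR test (adjusted p = 0.148). *Igfbp1*, *Igfbpl1* and *Insrr* had too few counts to be tested.

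Growth hormone drives *Igf1* transcription through its receptor, JAK2 and STAT5, so 6 genes of that pathway were read beside *Igf1*. None was higher and 1 was lower by edgeR's adjusted p, a share close to the 16.5% called over all genes tested. The lower gene was *Stat5a*, which fell from 81.5 ± 8.74 to 58.0 ± 6.18 CPM (SD, n = 3), by 0.49 on the log2 scale (edgeR quasi-likelihood adjusted p = 0.0367). That call was lost without L1L2-FF replicate 1 (0.130) or 3 (0.0676) and without L1L2-AKO replicate 1 (0.106), 2 (0.128) or 3 (0.0612). The growth hormone receptor gene *Ghr* was at 1109, 1151 and 1077 CPM in L1L2-FF and at 1254, 1559 and 2133 CPM in those labelled L1L2-AKO, without overlap, and did not pass the edgeR test (log2 fold change 0.57, adjusted p = 0.111). *Socs2*, a feedback inhibitor induced by STAT5, was at 17.4 ± 3.90 and 9.91 ± 2.66 CPM (SD, n = 3) and did not pass either (log2 fold change -0.81, edgeR adjusted p = 0.0629), but it was called without L1L2-FF replicate 3 (0.0419).

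Of 14 genes that relay the receptor signal through PI3K and AKT, 0 were higher and 2 were lower by edgeR's adjusted p, a share close to the 16.5% called over all genes tested, with a median log2 fold change of -0.03. *Akt2*, the AKT isoform that serves insulin-stimulated glucose uptake, was at 385, 429 and 457 CPM in L1L2-FF and at 263, 204 and 250.1 CPM in those labelled L1L2-AKO, without overlap. It fell by 0.83 on the log2 scale with an SE of 0.15 (edgeR quasi-likelihood adjusted p = 0.00777). *Akt1*, at 168 ± 2.49 and 185 ± 10.4 CPM (SD, n = 3), did not pass the test, with an edgeR adjusted p of 0.437. *Pik3cb*, the beta catalytic subunit of PI3K, fell from 66.3 ± 6.12 to 34.1 ± 11.0 CPM (SD, n = 3), by 0.96 (edgeR quasi-likelihood adjusted p = 0.0199), and the call was lost without L1L2-FF replicate 1 (0.0711) or 3 (0.0563) or L1L2-AKO replicate 2 (0.0703) or 3 (0.0867).

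**Figure D4:**
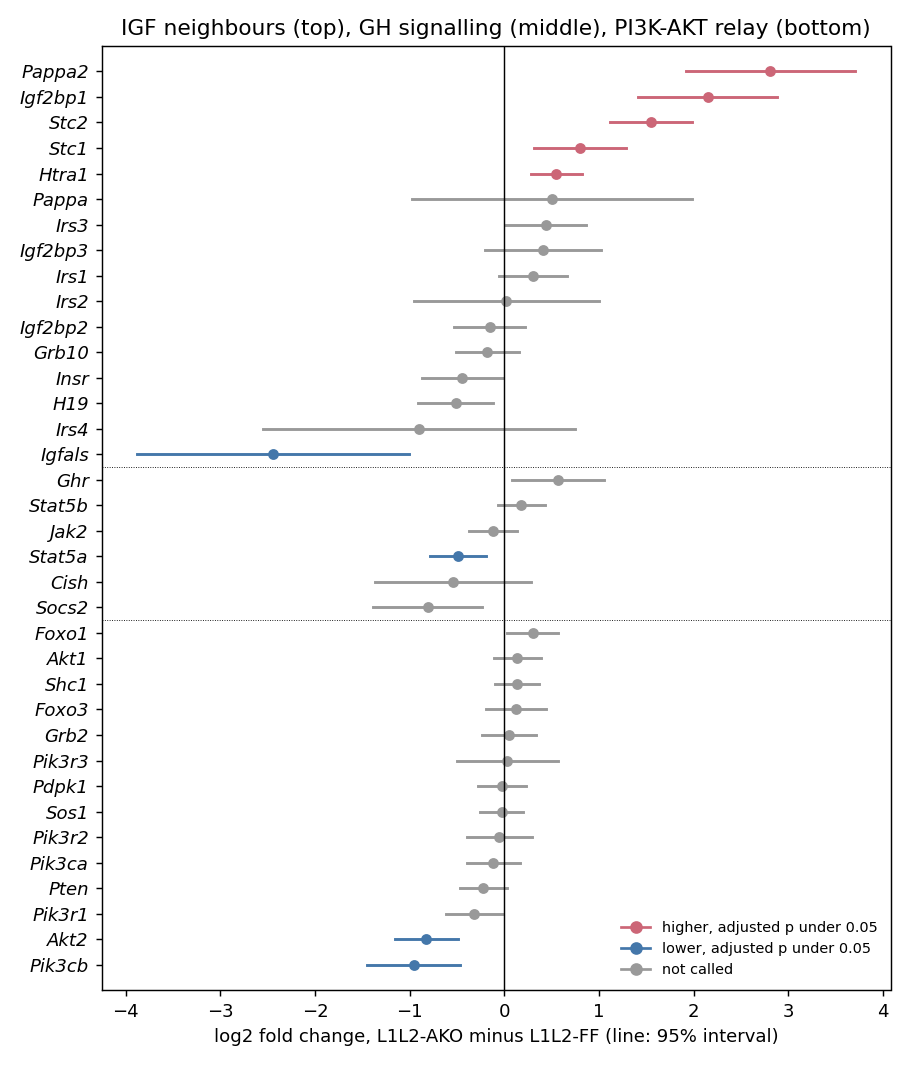
Log2 fold change (x axis, labelled L1L2-AKO minus L1L2-FF) with its 95% interval for the 36 genes tested of the 39 in 3 lists, with other IGF system genes at the top, growth hormone signalling in the middle and the PI3K and AKT relay at the bottom, coloured red for higher, blue for lower and grey for not called. Of the 36 genes 9 were called, 5 higher and 4 lower, where 16.5% of all genes tested were called, and the difference between the lists was not tested.

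The summed adipocyte markers moved with several of these results. On a scale of counts per 1000 counts of the summed markers *Igf1* was at 26.9, 28.4 and 28.8 in L1L2-FF and at 22.0, 22.4 and 23.8 in those labelled L1L2-AKO. On that scale it was still lower in all 3, with a mean of 22.7 ± 0.903 against 28.0 ± 1.04 (SD, n = 3). The means of *Igfbp6* were 0.359 and 0.358 and those of *Igfbp7* 19.2 and 20.1 on the same scale (n = 3), and both overlapped between the genotypes. *Igfbp2*, *Igfbp3*, *Igfbp4* and *Igf1r* remained higher in all 3 libraries labelled L1L2-AKO, and *Igf2r* also lay higher there. This scale was chosen after the data were seen, and the markers themselves differed between the genotypes. They did not move as one, with *Cfd* going from 3718 to 211 CPM, *Cidec* from 1090 to 1085 CPM and *Lep* from 694 to 924 CPM. A sum without *Cfd* was not used, so the levels of *Igfbp6*, *Igfbp7* and *Igf2r* on this scale hold for this sum alone.

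The macrophage sum was higher in the same 3 libraries as *Igfbp2*, *Igfbp3*, *Igfbp4* and *Igf1r*, at 991, 1102 and 983 CPM in L1L2-AKO replicates 1 to 3. It was nearly level among them, whereas *Igfbp2*, *Igfbp3* and *Igfbp4* were lowest in replicate 1. Of the mural cell markers *Tagln* and *Acta2*, contractile genes of smooth muscle named here after their values were seen, had that pattern too. *Tagln* was at 22.2, 26.9 and 22.5 CPM in L1L2-FF and at 57.5, 212 and 188 CPM in L1L2-AKO replicates 1 to 3 (log2 fold change 2.67, edgeR quasi-likelihood adjusted p = 0.00544). *Acta2* was at 63.1, 47.9 and 64.7 CPM and at 135, 242 and 229 CPM (log2 fold change 1.78, edgeR quasi-likelihood adjusted p = 0.00231). Both were higher in every library labelled L1L2-AKO, and lowest among these in replicate 1. The mural list as a whole did not share this pattern. *Notch3* and *Pdgfrb* were also lowest in L1L2-AKO replicate 1, but *Rgs5*, *Cspg4*, *Kcnj8*, *Abcc9* and *Myh11* were highest there among the L1L2-AKO libraries, and *Mcam* was lowest in replicate 2. *Myh11*, another contractile gene of smooth muscle, was at 58.1, 49.8 and 32.2 CPM in L1L2-AKO replicates 1 to 3. The most abundant macrophage markers, *Mrc1* and *Lyz2*, went from 71.5 to 256 CPM and from 71.2 to 151 CPM. The part of macrophages, mural cells or any other cell type in these results was not tested.

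**Figure D5:**
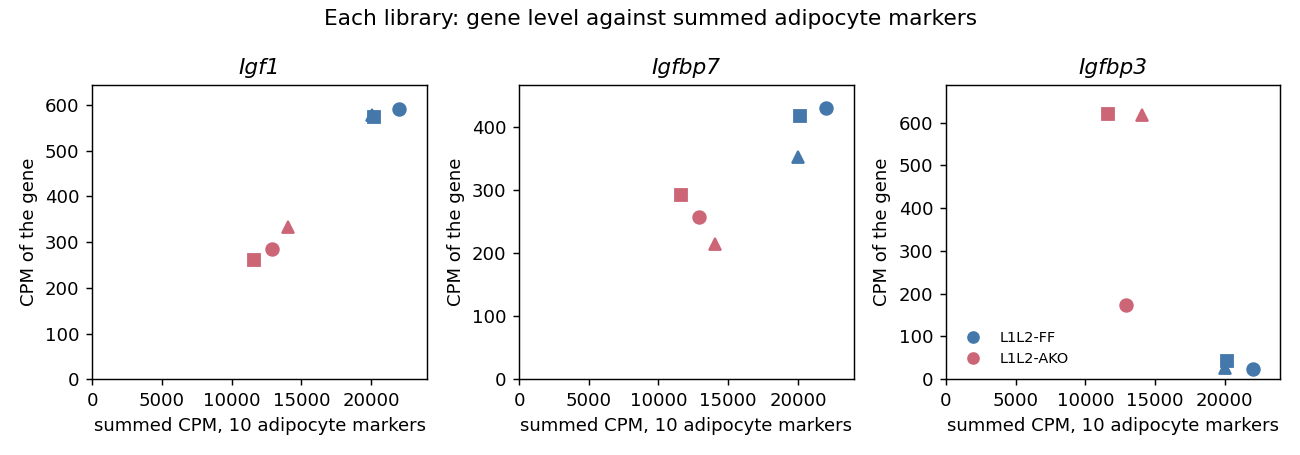
Level of *Igf1*, *Igfbp7* and *Igfbp3* in CPM (y axes) against the summed CPM of 10 adipocyte markers (x axes) in each of the 6 libraries, L1L2-FF in blue and L1L2-AKO in red, with circles, squares and triangles for replicates 1 to 3. Both axes start at 0, the red points lie between 11634 and 14046 on the x axis, and *Igfbp3* reaches 619.7 CPM there while *Igf1* stays at or below 334 CPM.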

How the data were processed

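RNA of floated adipocytes was measured in 6 libraries of P7 mice, grouped by the submitters' labels. The authors sequenced paired ends on a BGISEQ-500, aligned them to mm10 with HISAT2 2.1.0 and processed them with SAMtools and StringTie 1.3.5. They deposited raw counts, whole numbers for each gene symbol. The counting program, annotation and strand setting are not given in the sources used here. Totals ranged from 30548473 to 32107917 counts, and 0 rows named no gene.

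The counts were filtered with filterByExpr (minimum count 10), scaled by TMM and tested with edgeR 4.0.16 (R 4.3.3), quasi-likelihood, two-sided, without pairing, with Benjamini-Hochberg adjustment over 15674 genes. Exon lengths and positions were from GENCODE M21 (GRCm38), and promoters from RefSeq. DESeq2 1.42.0, limma 3.58.1, other scalings and filters, a replicate block and leaving out each library were alternatives. P-values measure the spread between pools, which differed beyond sampling noise.

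The members and gene lists were chosen with earlier results of these data known. Named were all members, the targeted genes, up to 4 called genes per direction and pathway list with the highest absolute fold change, the 2 most abundant markers of the adipocyte and macrophage lists, and for *Igf1* and *Igf2* the 3 genes of most similar pattern with a mean log2 CPM of at least 3. The mural cell markers and further adipocyte markers were named after their values were seen. Others named are the untested genes, overlapping genes, and pathway genes given with their values as not called. Beside the 14 genes of the PI3K and AKT list, 1 more is not reported here.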

Additional observations from a re-analysis of the deposited data

How the results depend on the processing

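None of the 10 genes, *Lats1*, *Lats2* or the called pathway genes changed direction under any of the alternatives. Some genes that were not called did, such as *Irs2* (log2 fold change 0.02) under 4 alternatives and *Pik3r3* (0.03) under 6. *Igf1*, *Igfbp2* and *Igfbp3* and, among the other genes, *Lats1*, *Pappa2*, *Stc2*, *Igf2bp1* and *Akt2* kept their calls under every alternative fitted, and *Igfbp2*, *Pappa2* and *Igf1os* could not be fitted with at least 10 counts in every library. *Igfbp2* and *Pappa2* passed the filter only through the group where they were high, so their kept calls support nothing. Leaving out 1 library gave 3 to 7 called of the 10 genes (7 with all libraries), 2 to 4 of them higher and 1 to 3 lower. The lowest value, 3, came without L1L2-FF replicate 1 or L1L2-AKO replicate 3, and 4 came without L1L2-AKO replicate 1 or 2. Of the 39 other pathway genes it gave 4 to 9 called, 3 to 5 higher and 1 to 4 lower, and of all genes 1281 to 2845 in place of 2580. The log2 fold change of *Lats2* then ranged from 0.55 to 0.78. Fewer libraries leave fewer degrees of freedom for the test, and no other cause was tested. With raw counts in place of counts per exon length the mean ratio of *Igf1* to *Igf2* was 0.996 in L1L2-FF and 0.690 in L1L2-AKO, and that of ligands to binding proteins 1.09 and 0.382. Other scalings shifted the median change over all genes by at most 0.035 on the log2 scale. DESeq2's Wald test, on 24018 genes, called 3370, *H19* (adjusted p = 0.0328), *Ghr* (0.0313) and *Socs2* (0.0203) among them, and without a filter *Socs2* was called as well (0.0454).

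Replicate numbers did not pair the samples. Same-numbered libraries deviated together with correlations of 0.188, 0.255 and -0.0544, and L1L2-AKO replicate 1 correlated better with L1L2-FF replicate 3 (0.211). With the replicate number as a block edgeR called 2514 genes, and *Igfbp5* passed (log2 fold change -0.61, adjusted p = 0.0326). So did *Socs2* (-0.82, 0.0146) and the mural cell markers *Kcnj8* (-0.92, 0.00412) and *Abcc9* (-0.89, 0.00668), which were not called without the block. *Igfbp6* (adjusted p = 0.0561) and *Stat5a* (0.0538) did not pass. No other gene named in the text changed its call, and of the 10 genes 7 were still called.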
